A study of Mus musculus with 24 samples.

Results

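Myosin light chains and myosin binding proteins are the small partners of the myosin heavy chain in the thick filament of striated muscle. The 10 genes described here were *Mylpf* and *Myl2* (regulatory light chains), *Myl1*, *Myl3*, *Myl4* and *Myl6b* (essential light chains), *Mylk2* (the light chain kinase of skeletal muscle), and *Mybpc1*, *Mybpc2* and *Mybph* (binding proteins). They were taken by gene name from the non-control probes of the arrays, where 13 of 55681 probes carried 1 of the 10 names. All 10 genes passed the filter on dim probes, among 9138 genes tested.

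Each myosin head carries an essential and a regulatory light chain on its lever arm, and phosphorylation of the regulatory chain by the kinase makes the force of a twitch larger. Most chains come as slow and fast isoforms from separate genes, so that a slow fiber expresses *Myl2* and *Myl3* and a fast fiber *Mylpf* and *Myl1*. Myosin binding protein C lies in stripes along the thick filament, as a slow (*Mybpc1*) and a fast (*Mybpc2*) isoform, and tunes how heads reach the thin filament. *M. gastrocnemius* of the mouse is mostly a fast muscle with some slow fibers.

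RNA came from *M. gastrocnemius* of male C57BL/6JOlaHsd mice that arrived at 10 weeks of age, ate a purified low-fat diet (10% of energy) for 3 weeks and a high-fat diet (40% of energy) for 6 weeks, and were then fasted. For 6 h, 12 mice (Hypox) breathed 12% oxygen and 12 mice (Norm) stayed at 20.9% oxygen. All mice thus shared the diet, the fast and the sex, and the muscle was taken whole, directly after the exposure. Each of 24 arrays held the RNA of 1 mouse in the Cy5 channel against the pooled RNA of all mice labelled with Cy3, so every value below is a log2 ratio to that pool unless another scale is named.

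The arrays lay on 6 slides with 2 Norm and 2 Hypox arrays each, and slides differed in brightness, with mean Cy5 signals of 58.3 to 102 on slide 1 and of 645 to 1014 on slide 6. The share of spots well above background ranged from 9.42% to 37.8% per array. The correlation between arrays over all genes ranged from 0.0063 to 0.82, so no array repeated another. Skeletal muscle markers (*Acta1*, *Ckm*, *Des*, *Mb*, *Ryr1*) were well above background on 24 of 24 arrays, and 0 of 6 heart muscle markers passed the filter, at 1.11 to 1.38 times background. Norm 5 stood apart in slow fiber genes, and values without it are given where they matter.

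The probes decide which part of a transcript was read. Those shown here hold no stop codon in at least 1 reading frame. They are shown because a slow and a fast binding protein C probe lie at places that can be aligned and because probes of *Myl1* and *Mybph* cross an intron. The gene values of *Mybpc1* and *Myl1*, with their slow and fast comparisons and their pairs, do not come from the probes printed here. They come from brighter probes at base 3825 (*Mybpc1*) and base 856 (*Myl1*). Over 57 aligned positions, the *Mybpc1* probe at base 3433 of NM_175418 (mm9, chr10:87985807-87985866, minus strand) and the *Mybpc2* probe at base 3322 of NM_146189 (chr7:51759105-51759164, minus strand) were identical at 31, which are in capitals, with the fast probe starting 3 bases earlier.
Mybpc1: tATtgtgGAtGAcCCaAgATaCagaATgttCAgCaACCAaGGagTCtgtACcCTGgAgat
Mybpc2: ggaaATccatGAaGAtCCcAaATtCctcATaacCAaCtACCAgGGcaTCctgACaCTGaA
The *Myl1* probe of NM_001113387 spans 4248 bases of the genome (chr1:66976853-66981100, minus strand) with 60 bases of probe. The *Mybph* probe at base 1518 of NM_016749 spans 560 bases (chr1:136096999-136097558, plus strand). Both therefore cross an exon junction, and they have no capitals because the junction was not placed here.
Myl1: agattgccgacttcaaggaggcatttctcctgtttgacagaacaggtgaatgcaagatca
Mybph: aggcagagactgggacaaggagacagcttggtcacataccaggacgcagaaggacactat

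*Mylpf*, *Mybph* and *Myl4* were higher and *Mylk2* was lower in Hypox than in Norm at the unadjusted *P*-value under 0.05 that the methods use. These were 4 of the 10 genes, 3 higher and 1 lower, against 12.2% of all genes tested, 7.17% higher and 5.07% lower. After Benjamini-Hochberg adjustment over all genes 0 of the 10 passed (limma's moderated test), where 0.339% of all genes did, and the lowest adjusted *P*-value was 0.0977. The median log2 fold change of the 10 genes was 0.17, beside 0.029 over all genes. The other 6 genes had 95% intervals that included 0. In RNA of whole muscle, fewer fibers of a type and less RNA per fiber cannot be told apart.

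**Figure D1:**
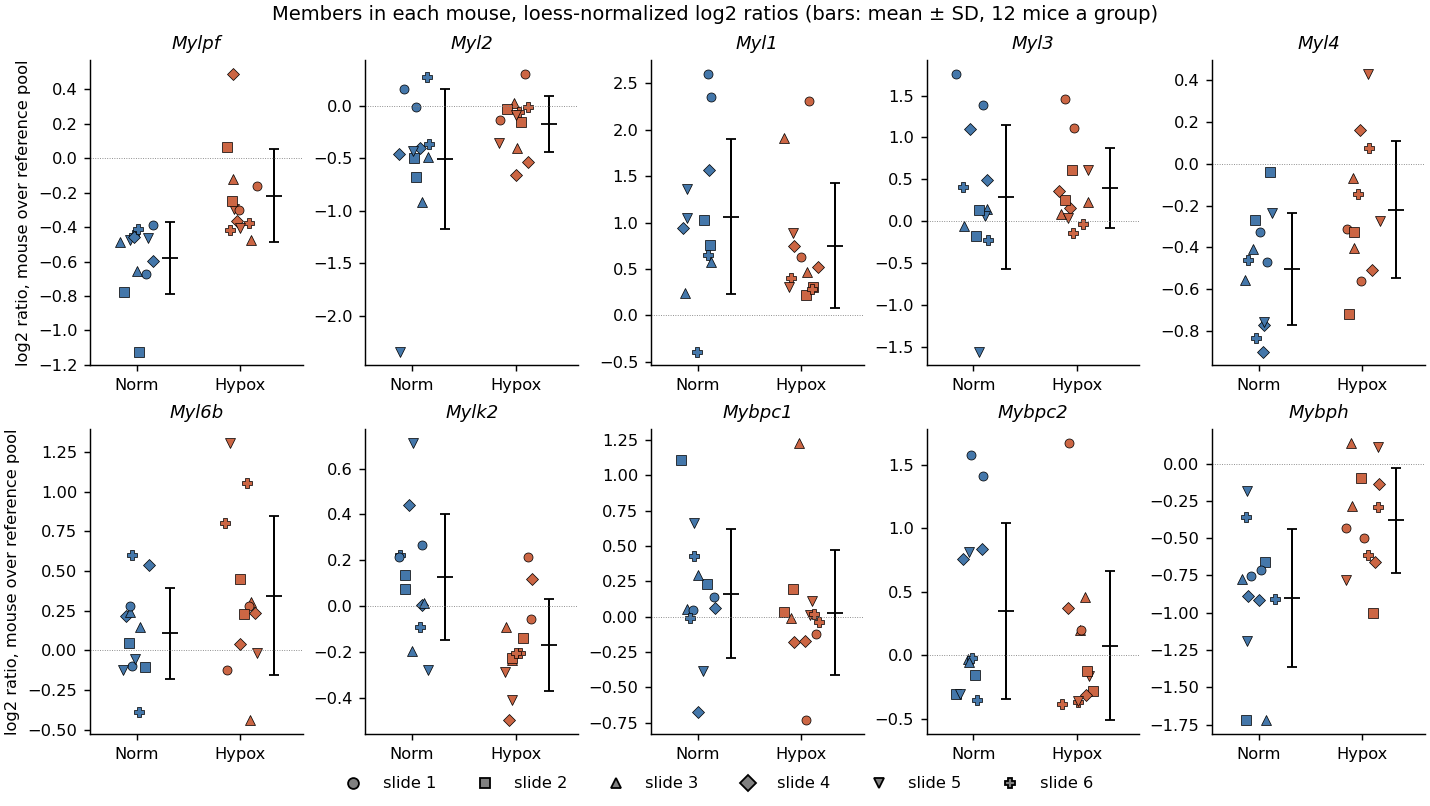
Log2 ratio of each mouse to the reference pool for the 10 genes, with Norm in blue and Hypox in orange, marker shape for the slide, and mean ± SD of 12 mice beside each group. The groups are most separate for *Mylpf*, where 9 of 12 Hypox mice lie above every Norm mouse, and Norm 5 is the low point of *Myl2* and *Myl3*.

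*Mylpf*, the regulatory light chain of fast fibers, was read by 1 probe at base 69 of NM_016754 (chr7:134355191-134355250) with a mean Cy5 signal of 16.4 times background. The brightest probes of *Myl2* and *Myl1* lay at 182 and 1580 times background. How well the *Mylpf* probe reads its transcript was not tested. The lowest, median and highest Norm values were -1.12, -0.48 and -0.39, and those of Hypox -0.47, -0.30 and 0.49. All 12 Hypox mice lay above the Norm median and 9 above every Norm mouse, although the ranges overlapped. Norm mice averaged -0.58 ± 0.21 (SD, n = 12) and Hypox mice -0.22 ± 0.27 (SD, n = 12), which is 0.36 higher on the log2 scale (standard error 0.097, 1.28-fold, *P*-value = 0.000905, adjusted 0.0977, limma). Its spread in Norm was close to that of a typical gene, at the 45.2 percentile of all genes.

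*Myl2*, the slow counterpart, was read at base 501 of NM_010861 (chr5) at 182 times background, and a second probe that stayed at 1.18 times background was not tested. Its Norm values had a minimum of -2.34, a median of -0.44 and a maximum of 0.27, and its Hypox values ran from -0.66 through -0.11 to 0.30. The Norm minimum belonged to Norm 5 alone, 10 of 12 Hypox mice lay above the Norm median, and Hypox 12 lay above every Norm mouse. The log2 fold change was 0.34 (95% interval -0.053 to 0.73, *P*-value = 0.0878, adjusted 0.479, limma). Without Norm 5 it was 0.17 (*P*-value = 0.18), and it passed the unadjusted threshold without Norm 4 (0.40, *P*-value = 0.0454) or Norm 12 (0.41, *P*-value = 0.0381).

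*Myl1* encodes the essential light chains of fast fibers, which come as a long and a short form from alternative starts of the same gene. The probe at base 856 of NM_021285 (chr1:66970948-66971007) gave -0.39, 0.99 and 2.60 as lowest, median and highest value in Norm and 0.22, 0.50 and 2.31 in Hypox. All Hypox mice lay within the Norm range, and 10 of 12 were not above the Norm median. The log2 fold change was -0.31 (95% interval -0.89 to 0.26, *P*-value = 0.275, limma), and it was -0.17 without Norm 4 and -0.19 without Norm 11. The probe of the other transcript, printed above, had no value for Hypox 9 and gave -0.26 (95% interval -0.64 to 0.12, *P*-value = 0.176, limma), close to the first. Whether this probe also reads the other transcript was not tested. Across 23 arrays the probes correlated with r = 0.63 (permutation test, *P*-value = 0.00112) and rho = 0.67 (*P*-value = 0.00067), with r = 0.56 without the 2 arrays farthest from the median and 0.54 with slide means removed.

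*Myl3*, the slow essential light chain, ranged in Norm from -1.56 to 1.76 with a median of 0.14 and in Hypox from -0.15 to 1.45 with a median of 0.24 (probe at base 837 of NM_010859, chr9). The widest values of the group were those of Norm 5 at the bottom and of slide 1 at the top. Its log2 fold change of 0.10 (95% interval -0.43 to 0.63, *P*-value = 0.69, limma) turned to -0.064 (*P*-value = 0.773) without Norm 5 and was 0.24 (*P*-value = 0.327) without Norm 4.

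*Myl4* is the essential light chain of the embryonic muscle and of the adult atrium, and *Myl6b* an essential light chain found in slow fibers and in nonmuscle cells. *Myl4* (base 790 of NM_010858, chr11) gave -0.90, -0.46 and -0.037 as lowest, median and highest value in Norm and -0.72, -0.29 and 0.43 in Hypox. The groups overlapped, with 3 Hypox mice above every Norm mouse. The Norm mean of -0.50 ± 0.27 (SD, n = 12) and the Hypox mean of -0.22 ± 0.33 (SD, n = 12) differed by 0.28 (standard error 0.12, 1.22-fold, *P*-value = 0.0232, adjusted 0.311, limma), which no longer passed without Hypox 11 (0.22, *P*-value = 0.0516). The heart markers *Nppa*, *Myl7* and *Mybpc3* lay at 1.38, 1.16 and 1.21 times background. *Myl6b* (base 965 of NM_172259, chr10) ranged from -0.39 through 0.094 to 0.60 in Norm and from -0.44 through 0.26 to 1.31 in Hypox, and 3 Hypox mice, Hypox 7, 9 and 11, lay above every Norm mouse. Its log2 fold change was 0.24 (95% interval -0.079 to 0.55, *P*-value = 0.136, limma), and it was 0.31 (*P*-value = 0.0426) without Hypox 2 and 0.15 (*P*-value = 0.291) without Hypox 11.

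*Mylk2*, the kinase that phosphorylates *Mylpf* and *Myl2* proteins when calcium binds calmodulin, was the gene of the 10 that passed as lower. At base 2871 of NM_001081044 (chr2:152748725-152748784), its Norm values ran from -0.28 through 0.11 to 0.71 and its Hypox values from -0.50 through -0.21 to 0.21. Only 2 Hypox mice lay above the Norm median and 3 lay below every Norm mouse. Norm mice averaged 0.13 ± 0.27 (SD, n = 12) and Hypox mice -0.17 ± 0.20 (SD, n = 12), and the log2 fold change was -0.29 (standard error 0.097, *P*-value = 0.00516, adjusted 0.197, limma). The direction depended on the scaling, as given with the scalings below.

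*Mybph*, a relative of myosin binding protein C found in fast fibers, had the highest log2 fold change of the 10 genes with the loess normalization. Norm mice had a lowest value of -1.72, a median of -0.83 and a highest of -0.19, and Hypox mice -0.999, -0.36 and 0.14. Of the Hypox mice 11 lay above the Norm median and 4 above every Norm mouse. The means were -0.90 ± 0.46 (SD, n = 12) and -0.38 ± 0.35 (SD, n = 12), a difference of 0.52 (standard error 0.16, 1.43-fold, *P*-value = 0.00242, adjusted 0.146, limma).

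*Mybpc1* and *Mybpc2*, the slow and the fast binding protein C, did not pass. The brighter *Mybpc1* probe (base 3825 of NM_001252372, chr10:87981078-87981137) ran from -0.67 through 0.10 to 1.11 in Norm and from -0.73 through -0.0015 to 1.23 in Hypox, with a log2 fold change of -0.13 (95% interval -0.48 to 0.21, *P*-value = 0.433, limma). Leaving out 1 array moved it to between -0.24 (*P*-value = 0.0995) without Hypox 2 and -0.049 (*P*-value = 0.759) without Norm 9. The probe at base 3433 gave -0.15 (95% interval -0.53 to 0.24, *P*-value = 0.44, limma), close to the first. Within single mice, however, the probes differed. The extremes of the first probe, Hypox 2 at 1.23 and Norm 9 at 1.11, were at -1.81 and -0.77 on the second. Over 24 arrays the probes had r = -0.37 (permutation test, *P*-value = 0.0806) and rho = -0.097 (*P*-value = 0.651), and r = 0.30 without the 2 arrays farthest from the median, so that the sign of r rests on those arrays. *Mybpc2* had a lowest, median and highest value of -0.35, -0.025 and 1.57 in Norm and of -0.38, -0.15 and 1.67 in Hypox, with a log2 fold change of -0.27 (95% interval -0.76 to 0.22, *P*-value = 0.265, limma). It was -0.16 without Norm 4, -0.17 without Norm 11 and -0.42 (*P*-value = 0.0555) without Hypox 4. Its highest values in both groups came from slide 1.

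With the brightest probe of each gene, slow and fast counterparts were set side by side within each array, where a shift of the whole array falls out. *Myl2* minus *Mylpf* averaged 0.066 ± 0.69 (SD, n = 12) over Norm mice and 0.041 ± 0.43 (SD, n = 12) over Hypox mice, a difference of -0.025. *Myl3* minus *Myl1* averaged -0.77 ± 0.86 (SD, n = 12) over Norm mice and -0.35 ± 0.59 (SD, n = 12) over Hypox mice, a difference of 0.42 that was positive on 4 of 6 slides and ranged from -0.67 to 1.69 between slides. *Mybpc1* minus *Mybpc2* averaged -0.18 ± 0.995 (SD, n = 12) and -0.048 ± 0.72 (SD, n = 12), a difference of 0.14. None of these differences was larger than the SD between mice of a group, and no test was made. With median centring they were 0.19, 0.29 and -0.062, and with processed signals 0.039, 0.31 and -0.15, so that the sign of the first and of the last pair depended on the scaling.

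The difference between Hypox and Norm was then taken on each slide. *Mylpf* was higher on 6 of 6 slides (0.030 to 0.86), *Mybph* was higher on 6 of 6 (0.18 to 1.17) and *Mylk2* was lower on 6 of 6 (-0.57 to -0.074). *Myl4* was higher on 4 of 6, at -0.37 on slide 2 and up to 0.66 on slide 4. The brightest genes moved with the slide instead. *Mybpc2*, *Myl3* and *Myl1* had 64.0%, 63.6% and 51.6% of their variation between slides, against a median of 24.7% over all genes and 6.03% to 11.2% for *Mybph*, *Myl4*, *Mylpf* and *Mylk2*. On slide 1, the dimmest, the slide means of *Myl1*, *Myl3* and *Mybpc2* were 1.97, 1.43 and 1.21, and on slide 6, the brightest, they were 0.24, 0.00024 and -0.28. The part of brightness in these values was not tested. With the slide as a block, the *P*-values of *Mylpf*, *Mybph*, *Mylk2* and *Myl4* were 0.00146, 0.00407, 0.00675 and 0.0309 (limma), and the other 6 genes did not pass. Of all genes, 14.2% passed with that block.

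**Figure D2:**
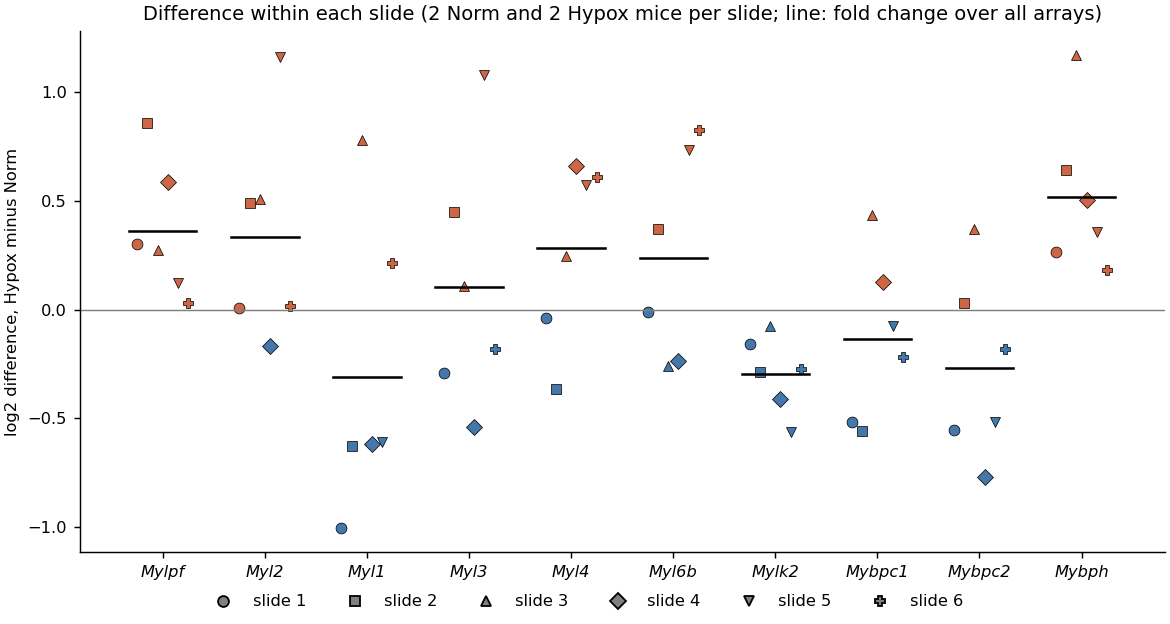
Mean of 2 Hypox arrays minus mean of 2 Norm arrays on each of 6 slides (marker shape), as a log2 difference, with the log2 fold change over all arrays as a line. Orange markers lie above 0 and blue markers below. *Mylpf* and *Mybph* lie above 0 and *Mylk2* below 0 on 6 of 6 slides, whereas *Myl1* runs from -1.01 to 0.78.

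How the arrays are scaled decided the direction of several of these genes. Where arrays were only centred on their medians, the median of all genes moved to 0.25, and relative to that median *Mybph* was at 0.61, *Mylpf* at 0.42, *Myl4* at 0.33 and *Mylk2* at -0.0059. None of the 10 genes passed at that setting, where 0.35% of all genes did, and *Mylpf* and *Mybph* had *P*-values of 0.106 and 0.073. On the deposited values, *Mybph* (0.76, *P*-value = 0.0116) and *Mylpf* (0.57, *P*-value = 0.0256) passed, *Myl4* (0.46, *P*-value = 0.0951) did not, and *Mylk2* was at 0.069 (*P*-value = 0.842, limma). Of all genes, 5.35% passed on those values. With the processed signals of the scanner software *Mybph* (0.64, adjusted *P*-value 0.0263, limma) and *Mylpf* (0.39, *P*-value = 0.000727) passed, *Mylk2* was at -0.18 (*P*-value = 0.0479), and *Myl4* (0.35, *P*-value = 0.0113) and *Myl2* (0.43, *P*-value = 0.0276) passed as well, so that 5 of the 10 genes passed where 12.5% of all genes did. *Myl1*, *Mybpc1* and *Mybpc2* were above 0 with median centring and on the deposited values and below 0 with loess and the processed signals.

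**Figure D3:**
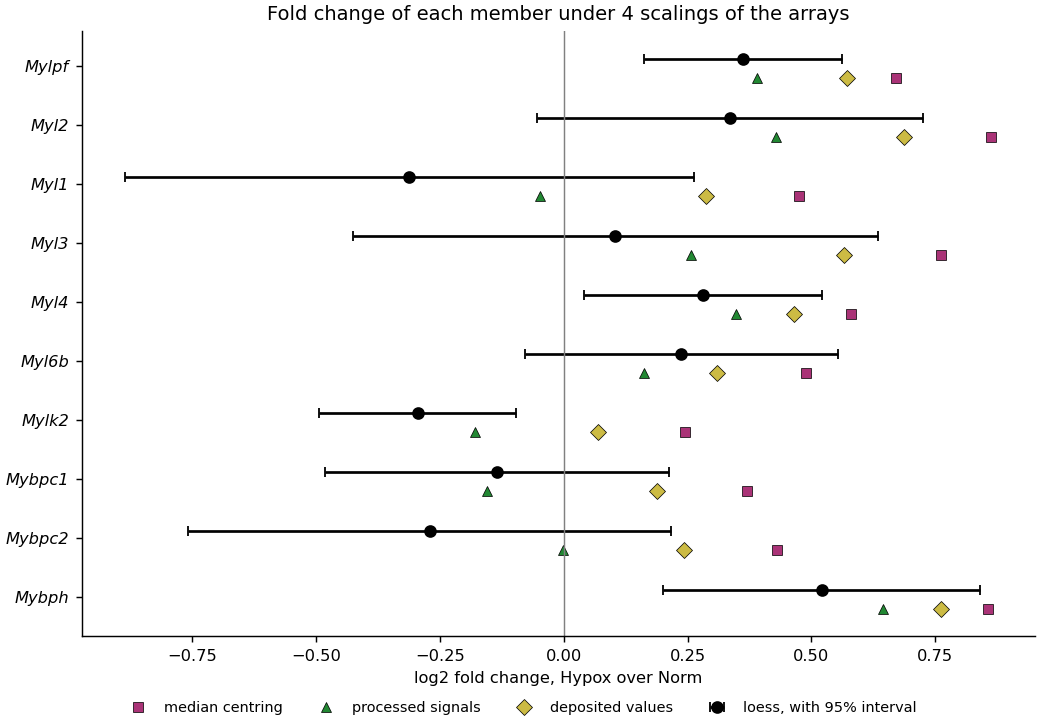
Log2 fold change of Hypox over Norm for the 10 genes with loess-normalized ratios (black, 95% interval), with each array centred on its median (purple), with the processed signals (green) and with the deposited values (yellow). *Mylpf*, *Myl2*, *Myl3*, *Myl4*, *Myl6b* and *Mybph* lie above 0 at each of these scalings, whereas *Mylk2*, *Myl1*, *Mybpc1* and *Mybpc2* change sides.

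Genes that share the fibers of these proteins were described from fixed lists, by counts without a test of the list. Of 12 slow fiber genes 11 were tested, and all 11 were above 0, where 5376 of all 9138 genes were. Unadjusted, 4 passed as higher and 0 as lower (median log2 fold change 0.30), where 7.17% of all genes passed as higher. After adjustment 0 of the list passed. The 4 were the slow troponins *Tnni1* (0.61, *P*-value = 0.000891) and *Tnnc1* (0.44, *P*-value = 0.0221), the calcium store protein *Casq2* (0.27, *P*-value = 0.0111) and the myosin heavy chain *Myh7b* (0.27, *P*-value = 0.0481, limma). The list stayed above 0 in its median at each scaling, and without Norm 5 it had 3 genes past the threshold and a median of 0.19. *Myl2* and *Myl3*, with log2 fold changes of 0.34 and 0.10, thus lay beside a list with a median of 0.30.

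Of 12 fast fiber genes, all tested, 0 passed with limma at an unadjusted *P*-value under 0.05. In this list 10 were below 0, where 3762 of all 9138 genes were, and the median was -0.25. The lowest *P*-values were those of the heavy chains *Myh1* (-0.26, *P*-value = 0.0939) and *Myh4* (-0.59, *P*-value = 0.102), the calcium buffer *Pvalb* (-0.48, *P*-value = 0.187) and *Casq1* (0.17, *P*-value = 0.285, limma). With the slide as a block 3 of them passed as lower and 0 as higher, where 1297 of all 9138 genes (14.2%) passed, 734 of them as higher. Single arrays moved the list, with a median of -0.096 without Norm 4 and -0.11 without Norm 11, where 0 passed, and of -0.39 without Hypox 4, where 3 passed as lower. Without Hypox 12 the median was -0.29 and 1 passed as higher. The direction turned with the scaling, with a median of 0.55 with median centring, 0.37 on the deposited values and 0.061 with the processed signals, where 2 genes passed as higher. *Mylpf* and *Mybph*, which are known from fast fibers, were above 0 in each of these.

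In the list of the thick filament and the M-band, which holds the proteins that *Mybpc1* and *Mybpc2* bind or lie beside, 1 of 12 tested genes passed, the giant ruler protein *Ttn* (-0.75, adjusted *P*-value 0.0434, limma), and the median was 0.019. At the unadjusted threshold 12.2% of all genes passed. The next were the muscle methyltransferase *Smyd1* (0.24, *P*-value = 0.11), the ubiquitin ligase *Trim63* (0.31, *P*-value = 0.115), whose known targets include light chains and myosin binding protein C, and the M-band protein *Myom2* (-0.37, *P*-value = 0.189). With the slide as a block, 3 passed as lower and 0 as higher. Of all 9138 genes, 1297 (14.2%) passed with that block, 734 of them as higher.

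A list of 12 genes of embryonic or regenerating fibers holds some that, like *Myl4*, are known from developing muscle. Of the 12, 8 were tested, 6 passed as higher and 0 as lower, and the median was 0.24, where 7.17% of all genes passed as higher. The 2 that did not pass were *Myh8* (-0.42, *P*-value = 0.233) and *Actc1* (-0.0082, *P*-value = 0.964, limma), both below 0. The smallest *P*-values were those of the myogenic factor *Myog* (0.23, *P*-value = 0.000659), the acetylcholine receptor subunit *Chrna1* (0.30, *P*-value = 0.0113), *Gadd45a* (0.25, *P*-value = 0.0272) and the embryonic heavy chain *Myh3* (0.38, *P*-value = 0.0334, limma), and after adjustment 0 passed. Leaving out Hypox 7 or Hypox 11 left 3 genes past the threshold, where 10.9% and 11.7% of all genes passed in either direction. The processed signals and the deposited values left 2 each, where 12.5% and 5.35% of all genes passed. Median centring left 0, where 0.35% of all genes passed. Of the satellite cell markers, 5 of 6 lay at background (1.15 to 1.41 times), including *Pax7* and *Myf5*, and *Cdh15* was at 0.25 (*P*-value = 0.0498, limma). *Myog* itself was a dim gene, at 2.09 times background.

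Among 18 other light chain, binding protein, kinase and phosphatase genes, 13 were tested and 1 passed, the nonmuscle regulatory light chain *Myl12a* (0.25, *P*-value = 0.026, limma). Over all genes, 12.2% passed. *Calm2* (-0.13, *P*-value = 0.138), which encodes calmodulin, the activator of *Mylk2*, and the kinase *Mylk4* (-0.27, *P*-value = 0.155, limma) did not pass. The phosphatase subunits that take the phosphate off regulatory light chains were at 0.079 (*Ppp1cb*), -0.084 (*Ppp1r12a*) and -0.15 (*Ppp1r12b*). The kinase *Mylk3* and the binding proteins *Mybpc3* and *Mybphl*, all of the heart, lay at 1.14 to 1.21 times background. Without Norm 3, Norm 5 or Hypox 11, 0 of the 13 passed.

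**Figure D4:**
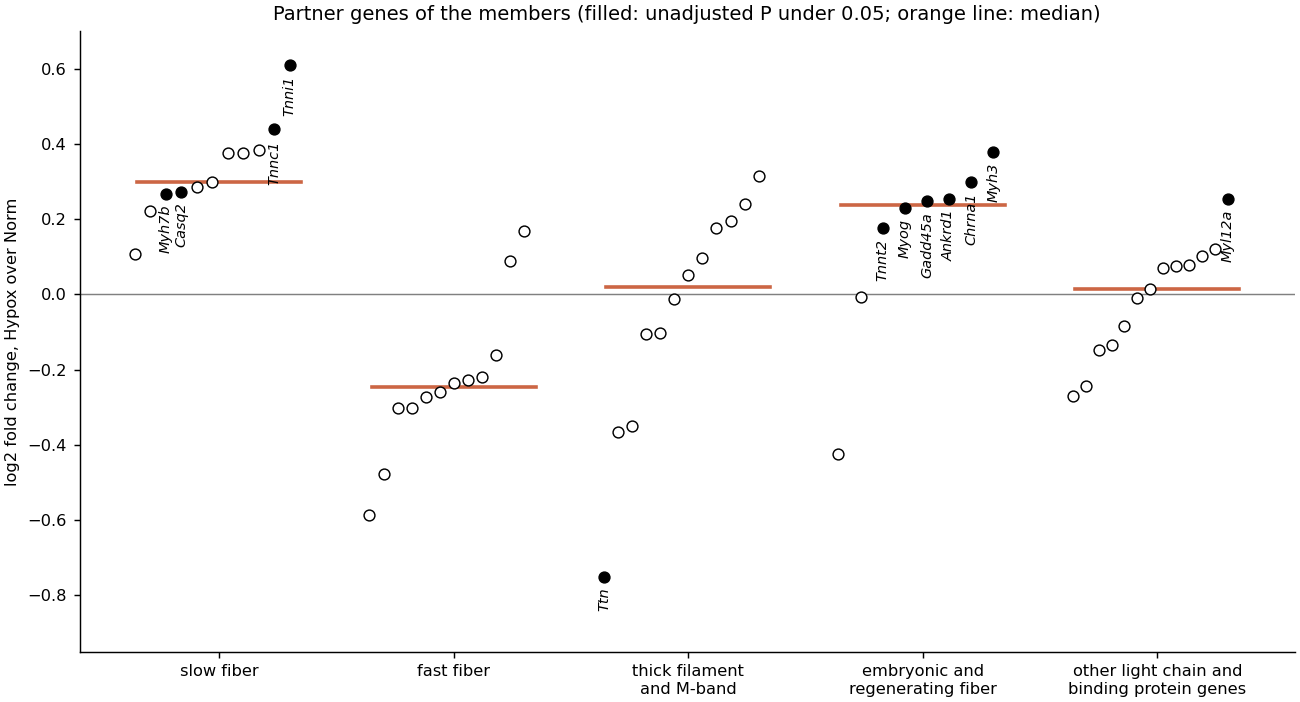
Log2 fold change of Hypox over Norm for each tested gene of the 5 lists, in rising order within a list. Filled points passed an unadjusted *P*-value of 0.05 and are named, and the orange line is the median. With the loess normalization shown, slow fiber genes lie above 0 and 10 of 12 fast fiber genes below 0. In the list of embryonic and regenerating fibers, 6 of 8 tested genes lie above 0, with *Myh8* and *Actc1* below. The median of the fast list turned above 0 with median centring, the processed signals and the deposited values.

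Members and partners were also compared across the 24 arrays, for 10 pairs. *Myl2* followed the slow heavy chain *Myh7* (r = 0.90, rho = 0.71), *Tnni1* (r = 0.81, rho = 0.71) and *Myl3* (r = 0.68, rho = 0.46), and *Myl3* followed *Tnnt1* (r = 0.78, rho = 0.80). By permutation tests adjusted over the 10 pairs, the r had *P*-values of 5e-05, 5e-05, 0.00207 and 0.000133 and the rho 0.000533, 0.000533, 0.0511 and 0.0002 (unadjusted, r 1e-05, 1e-05, 0.00083 and 4e-05, of which 1e-05 is the smallest that 100000 permutations give, and rho 0.00016, 0.00016, 0.0255 and 2e-05). The arrays farthest from the *Myl2* median were Norm 5, with *Myl2* at -2.34, *Myh7* at -2.90, *Tnni1* at -2.10 and *Tnnt1* at -2.04, and Hypox 12. Without them r was 0.73 with *Myh7*, 0.69 with *Tnni1* and 0.37 with *Myl3*, and r of *Myl3* and *Tnnt1* without Norm 5 and Norm 4 was 0.64. Within Norm and within Hypox, r was 0.94 and 0.47 with *Myh7*, 0.84 and 0.66 with *Tnni1*, and 0.82 and 0.20 with *Myl3*. Without Norm 5 alone, r of *Myl2* and *Myl3* was 0.43 over 23 arrays and 0.63 within Norm.

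*Mybph* and *Myog* had r = 0.60 (adjusted *P*-value 0.0042, unadjusted 0.0021) and rho = 0.56 (adjusted 0.012, unadjusted 0.00481, permutation tests), with r = 0.57 without Norm 9 and Norm 10. Both were higher in Hypox, and within a group r was lower, at 0.28 in Norm and 0.48 in Hypox. The cause of the lower r was not tested. With slide means removed r was 0.61. *Mybph* had r = 0.37 with *Chrna1* and 0.23 with *Myl4* (adjusted permutation *P*-values 0.124 and 0.375; rho 0.42 and 0.27, adjusted 0.0691 and 0.259).

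The remaining 3 pairs had r below 0 and did not pass. *Mylpf* and *Myl1* had r = -0.21 and rho = -0.36 (adjusted permutation *P*-values 0.375 and 0.124), *Mybpc1* and *Mybpc2* r = -0.20 and rho = -0.13 (0.375 and 0.529), and *Myl6b* and *Myl3* r = -0.097 and rho = -0.16 (0.646 and 0.514). In contrast, the fast *Myl1* and *Mybpc2*, a pair outside the 10 that was chosen after its value was seen, had r = 0.87 (permutation test, *P*-value = 1e-05, the smallest possible) and rho = 0.72 (*P*-value = 0.00017). Their r was 0.78 without Norm 4 and Norm 11, 0.86 within Norm, 0.87 within Hypox and 0.75 with slide means removed. Median centring subtracts the median log ratio of each array and leaves trends of the ratio with spot intensity in place. With it, all 10 pairs had r between 0.86 and 0.99 and *Myl1* and *Mybpc2* r = 0.97, so the correlations depend on the loess normalization. The cause of the higher r was not tested.

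**Figure D5:**
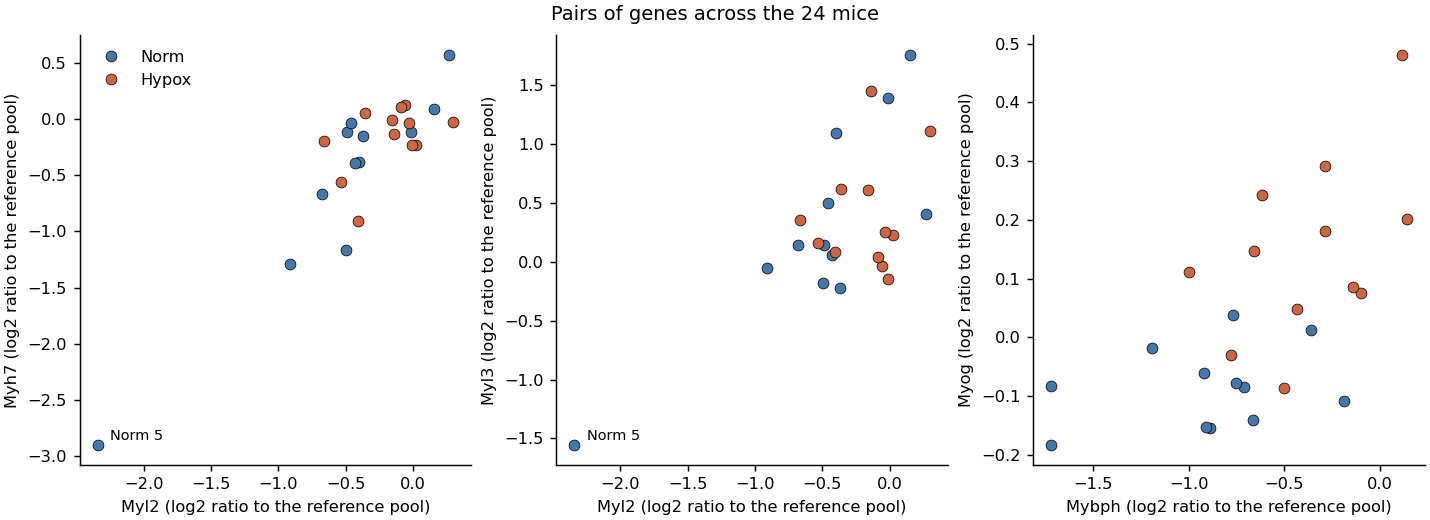
Log2 ratios to the reference pool in each of 24 mice for *Myl2* against *Myh7*, *Myl2* against *Myl3*, and *Mybph* against *Myog*, with Norm in blue and Hypox in orange. Norm 5 lies far below the other mice in both *Myl2* panels, and Hypox mice lie to the upper right in the *Mybph* panel.

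Genes with a like pattern were picked by the highest r to each member, as a description of likeness. The r was taken over the 24 arrays once the mean of each group on each slide was taken out. Each such mean covered 2 arrays, whose remaining values mirror each other, so r rests on fewer independent values than 24. An r can also be high because it was picked as the highest among 9138 genes, and no test was made. The 3 nearest genes of each member had r between 0.79 and 0.97. For *Mybpc2* they were the fast heavy chain *Myh4* (r = 0.93), the glycolytic enzyme *Pfkm* (0.92) and *Gm12070* (0.92). For *Myl2* they were lipoprotein lipase *Lpl* (0.93), *Cenpw* (0.89) and *Myh7* (0.89), and for *Myl3* the fat oxidation enzyme *Acadm* (0.89), the fatty acid transporter *Cd36* (0.89) and *Nudt6* (0.87). For *Myl1*, *Mybpc1* and *Mylk2* the nearest were *Ubtf* (0.97), *Irf2bpl* (0.94) and *Fyco1* (0.93), and for *Mybph*, *Myl6b*, *Mylpf* and *Myl4* they were *Ppp1r3b* (0.92), *Mustn1* (0.90), *Dhx36* (0.86) and *Rnf121* (0.86). Some of these held only after the means were taken out, as *Cenpw* (r = 0.23 before) and *Nudt6* (r = -0.061 before).

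Markers of other cell types that a whole muscle can hold moved in part with the groups, and their part in the values above was not tested. Over all genes, 5.07% passed as lower and 7.17% as higher. Of the adipocyte markers 3 of 5 were tested and 2 passed as lower (*Cfd* -0.56, *Adipoq* -0.33), and the mean log2 ratio of the list lay between -0.81 and 1.24 over Norm mice and between -0.80 and -0.18 over Hypox mice. Of the peripheral nerve markers 5 of 5 were tested and 3 passed as lower, *Prx* and *Pmp22* among them, with -0.39 to 0.43 in Norm and -0.67 to 0.099 in Hypox. Of 5 smooth muscle markers tested of 6, 0 passed (limma, unadjusted *P*-values from 0.181), with -0.38 to 0.27 in Norm and -0.42 to 0.022 in Hypox. Of the endothelial markers 1 of 3 tested passed as higher (*Cdh5*, 0.38), with -0.32 to 0.27 in Norm and -0.36 to 0.21 in Hypox, of the red blood cell markers 0 of 2, and of the lung markers the single one tested, *Sftpc* (0.81, *P*-value = 0.0153, limma), which was well above background on 4 of 24 arrays. Of the muscle fiber markers, *Ryr1* passed as lower (-0.56, *P*-value = 0.0141, limma), and *Acta1*, *Ckm*, *Des* and *Mb* lay between -0.13 and 0.083.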

How the data were processed

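Per array, the authors deposited spot intensity in each channel, as mean signal and local background, written by Agilent Feature Extraction 10.7.3.1 without normalization between arrays. They also deposited a table of log2 values normalized with GeneMaths XT, in which every column has a median of 6.58 and whose scaling against the reference channel is not given in the sources used here. Probe positions refer to mm9. Which dye held the mouse was read from the descriptions, because other dyes stand in the dye field of some Hypox arrays.

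Control spots and 7260 flagged readings were left out, and 0 spots were saturated. After normexp background correction (offset 50), loess (span 0.3) normalized the log2 ratio of Cy5 to Cy3 within each array, and spots of a probe were averaged. Probes with a mean Cy5 signal over 2 times the background and at most 4 arrays without a value were kept (14311 probes), and the brightest probe stood for its gene (9138 genes). Gene names came from the arrays' accessions and symbols through a RefSeq table of GRCm38.p6, of which no coordinate was used. Groups were compared with limma's moderated test, 2-sided and without a block, and P-values were adjusted by Benjamini-Hochberg over the genes tested. A gene was called at an unadjusted P-value under 0.05, as in the study's methods. Correlations were tested with 100000 permutations, 2-sided. The number of arrays limits the precision.

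The 10 genes and the lists were chosen with earlier results of these data known. The text names the 10 genes, up to 4 genes of each list with the smallest P-value, the partners in the pairs and up to 3 genes with the most similar pattern. Phosphatase subunits, heart genes, markers, *Myh8* and *Actc1* were named besides, as members of fixed lists, with their values seen. A few genes of the lists are not reported here.

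R 4.3.3, limma 3.58.1, data.table (version 1.17.8), Python 3.11.15 and matplotlib 3.10.9 were used. The fit was tested on simulated data for the same design, where it recovered 97.5% of 200 genes (of 9138) given a log2 change of 1, with 7 false calls.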

Additional observations from a re-analysis of the deposited data

How the results depend on the processing

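Of the 10 genes, 4 passed the unadjusted threshold with loess, 0 with median centring in place of loess and 2 on the deposited values. Over all genes, 12.2%, 0.35% and 5.35% passed at these settings. Without each array in turn the count ran from 3 to 5, and the other processing alternatives gave 4 or 5, including 5 with the replicate number as a block. After adjustment 1 gene passed with the processed signals (66 of all 9138 genes) and 2 with array weights (277 of all genes, with 18.8% past the unadjusted threshold). The labels do not say whether the replicate numbers pair the mice. On a scale other than that of the correlation between arrays above, 3 of 12 same-numbered pairs had a correlation over 0.1 (-0.20 to 0.52). The highest was that of replicate 4, the 1 such pair on a single slide. Such values cannot exclude a pairing. The replicate block brought *Myl2* past the threshold. *Myl1*, *Mylk2*, *Mybpc1* and *Mybpc2* turned above 0 with median centring (0.47, 0.25, 0.37 and 0.43) and on the deposited values (0.29, 0.069, 0.19 and 0.24). *Myl3* turned to -0.040 with array weights and to -0.064 without Norm 5. The cause of these turns was not tested. *Mylpf*, *Mybph* and *Mylk2* passed without any 1 array (0.30 to 0.39, 0.45 to 0.59 and -0.33 to -0.24). *Myl4* lost its call with the Cy5 channel alone (0.26, P-value = 0.0572) as well. At that setting *Myl2* (0.39, P-value = 0.0406) and *Myl3* (0.34, P-value = 0.0471, limma) passed as higher, where 7.90% of all genes passed in either direction.

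The counts in the lists, with alternatives other than the slide block chosen after seeing the data, were as follows. The slide block gave 3 fast fiber and 3 thick filament genes in place of 0 and 1, and 14.2% of all genes in place of 12.2%. The processed signals gave 2 embryonic, 2 fast, 2 slow, 3 other light chain and 2 thick filament genes, where 12.5% of all genes passed. Median centring gave 0 in the embryonic, slow, other light chain and thick filament lists, and the deposited values 2 embryonic, 0 other light chain and 0 thick filament genes. Without Norm replicate 5, 0 other light chain and 2 thick filament genes passed, as did 0 other light chain genes without Norm 3 or Hypox 11 and 2 thick filament genes without Hypox 2 or Hypox 12. Signals near background limit the dim genes, *Myog* among them, and intervals of the 6 genes that did not pass still include changes as large as that of *Myl4*.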
